A study of Drosophila melanogaster with 212 samples.

Results

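The genes described here are the 9 members of the Drosophila dosage compensation machinery and its upstream switch, roX1, roX2, msl-1, msl-2, msl-3, mle, mof, Clamp and Sxl. They were taken by name, and all 9 were found once each among the 17104 genes listed in the deposited table. The cells were single octopaminergic/tyraminergic neurons of the Drosophila melanogaster brain that carried a membrane-bound green fluorescent reporter and were sorted one by one. The study set flies mutant for nervy against wild-type flies in both sexes. The cells were 56 from nervy-mutant males, 51 from wild-type males, 54 from nervy-mutant females and 51 from wild-type females. All flies were kept in groups of 15 and taken on day 6. The mutant allele and the driver of the reporter were not named in the labels.

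Male flies have a single X chromosome and females have a pair. In males the male-specific lethal (MSL) complex, made of proteins and the noncoding roX RNAs, binds the X chromosome and raises its transcription. In females the RNA-binding protein Sex-lethal (SXL) blocks the production of MSL2, so that the complex does not form.

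No animal was named, so each of the 4 groups counted as 1 sample, and no difference below has a replicate check or a p-value. Intervals are at 95%, exact Poisson for summed levels and exact binomial for shares of cells, and cover counting error only. Levels are counts scaled to library size (CPM), either in 1 cell or over the summed cells of a group, and ratios are differences of log2(CPM + 1) between summed groups. A ratio was called past 2-fold when its size was at least 1 on that scale. After 13 cells with few reads were left out and near-identical columns of 1 group were averaged, 49 mutant male, 42 wild-type male, 50 mutant female and 48 wild-type female cells remained. Their totals ranged from 20875 to 3045780 counts.

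Each group carried the defining markers of the sorted neurons. Tdc2, the tyrosine decarboxylase that makes tyramine, summed to between 4897 and 5652 CPM in the 4 groups, and 14 of the 189 cells were under 100 CPM. The targeted gene, nvy, summed to 7.25 CPM in nervy mutant males, 16.7 CPM in wild-type males, 9.73 CPM in nervy mutant females, and 13.3 CPM among wild-type females. Summed levels of 6 glial markers were 470.4 CPM in nervy mutant males, 848.4 CPM in wild-type males, 104.1 CPM in nervy mutant females, and 452.1 CPM among wild-type females. Of those 6 markers, 5 were past 2-fold higher in nervy mutant males than in nervy mutant females, and 1 was higher and 1 lower in wild-type males than in wild-type females. Between genotypes, 4 were lower in nervy mutant females and 2 in nervy mutant males. Markers of other cells moved too. Of 3 photoreceptor markers, ninaE and Arr2 were past 2-fold higher and trp lower in wild-type males than in wild-type females. Arr2 was higher in nervy mutant males than in nervy mutant females. Arr2 and trp were lower in nervy mutant females than in wild-type females, and ninaE and Arr2 in nervy mutant males than in wild-type males. The 4 fat body markers were each at most 36.3 CPM in every group. Of them, 3 were past 2-fold lower in nervy mutant males than in nervy mutant females, all 4 were lower in wild-type males than in wild-type females, and all 4 were lower in nervy mutant females than in wild-type females. Of 5 genes of other transmitters, ChAT, Gad1 and ple were lower and Trh was higher in nervy mutant females than in wild-type females, ple was lower in nervy mutant males than in wild-type males, and ChAT and Gad1 were higher and Trh lower in nervy mutant males than in nervy mutant females. Of all 5585 genes at a mean of 20 CPM or more, 7.2% passed 2-fold between the sexes in nervy mutants and 7.79% in wild type. Between genotypes 4.64% did in females and 2.42% in males. Only 2 of the 6 glial, 1 of the 3 photoreceptor, 0 of the 4 fat body and 3 of the 5 transmitter genes reached that mean. The part of these markers in the results below was not tested, except where values without cells low in Tdc2 or rich in repo are given.

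Some cells stood apart. There were 19 pairs of nearly identical columns, of which 8 joined a mutant and a wild-type male, 1 joined a mutant and a wild-type female and none joined a male and a female. The cells of pairs that joined genotypes were kept in both groups, so nearly the same values stand on both sides of the comparisons between genotypes. Whether they are the same cells cannot be told from the labels. Cells are named here by their place in the list of samples of their group, not by the number in their title. Wild-type female cell 41 carried male-like amounts of both roX RNAs. A separate running number in each column header of the deposited table also divided the groups unevenly. By it, 28 mutant male, 20 wild-type male, 0 mutant female and 8 wild-type female cells were numbered 1 to 96. Cells called numbered 1 to 96 or above 96 below are so by this running number. What the running numbers stand for was not stated. Values within the stretches, or without the pairs, are given for several of the ratios whose direction or call they turn.

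roX1 (FBgn0019661) is a noncoding RNA of the MSL complex, transcribed from the X chromosome (dm6, X from 3857230 to 3862697). In the annotation 7.17% of its exon bases are shared with ec. It was read in every male cell. In nervy mutant males its lowest, median and highest cells had 42.98, 3158 and 7987 CPM, and in wild-type males 609.2, 2936 and 10027 CPM. In nervy mutant females the lowest and median cells had 0 CPM and the highest 201.96 CPM, and in wild-type females the lowest and median had 0 CPM and the highest 7042 CPM. The sexes overlapped only through single cells: 94 of the 98 female cells had no roX1 read, and 1 of the 91 male cells was under 100 CPM. That male cell, mutant male cell 50, had 690.1 CPM of the glial gene repo, 162.99 CPM of Tdc2 and no read of roX2 or Sxl.

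Summed roX1 was 3086 CPM (3071 to 3102) in nervy mutant males and 7.07 CPM (6.25 to 7.97) in nervy mutant females, a log2 ratio of 8.58. It was 3145 CPM (3129 to 3162) in wild-type males and 173.8 CPM (170.2 to 177.5) in wild-type females, a log2 ratio of 4.17. Wild-type female cell 41 held 97.7% of its group's roX1 counts, and cell 31 of the nervy mutant females held 99.6% of theirs. Without cells under 100 CPM of Tdc2, cell 41 among them, roX1 was 2961 CPM in nervy mutant males and 7.16 CPM in nervy mutant females, a log2 ratio of 8.50. It was then 2847 CPM in wild-type males and 4.48 CPM in wild-type females, a log2 ratio of 9.02.

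The 3 female cells at or above 100 CPM of roX1 differed from each other. Mutant female cell 31 and wild-type female cell 16 had 201.96 and 164.2 CPM of roX1, no roX2, Sxl at 392.2 and 459.7 CPM, and Tdc2 at 5999 and 5403 CPM. Wild-type female cell 41 had 7042 CPM of roX1, 1036 CPM of roX2 and 188.6 CPM of Sxl. It also had 77.7 CPM of Tdc2 and 21 CPM of repo, and its running number lay between 1 and 96. The roX RNAs of that cell went against its female label.

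**Figure D1:**
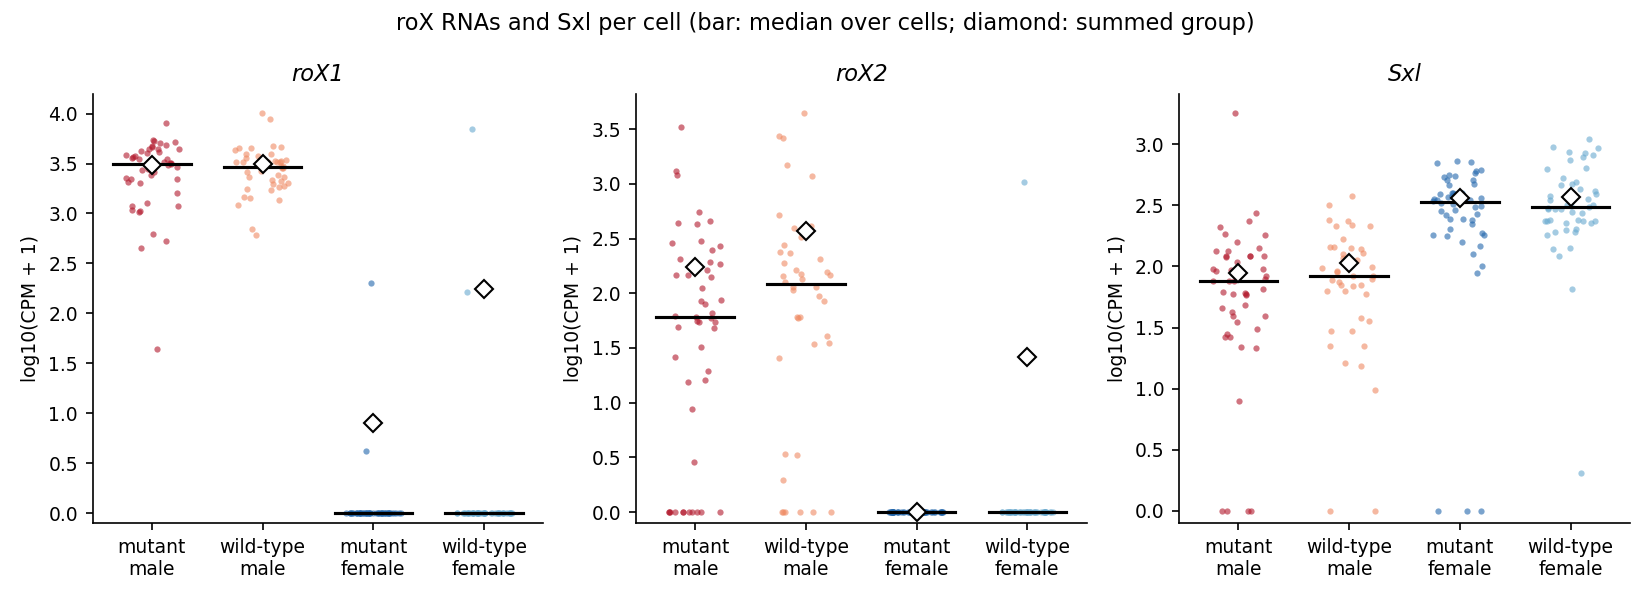
Levels of roX1, roX2 and Sxl in each cell, as log10(CPM + 1), in nervy mutant males, wild-type males, nervy mutant females and wild-type females. Points are cells, bars are medians over cells and diamonds are summed groups. The roX RNAs were near absent from most female cells. Wild-type female cell 41 had both, and roX1 was at 201.96 CPM in mutant female cell 31 and 164.2 CPM in wild-type female cell 16. Sxl had medians of 75.1 and 82.2 CPM in males against 335.4 and 304.6 CPM in females.

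roX2 (FBgn0019660, dm6, X from 11579065 to 11580432) is the second noncoding RNA of the complex. It was read in 38 of 49 mutant male and 36 of 42 wild-type male cells. Its lowest, median and highest cells had 0, 60.1 and 3304 CPM in nervy mutant males, and 0, 119.5 and 4389 CPM in wild-type males. No mutant female cell had a read, and in wild-type females cell 41 held all 1232 counts. The male range thus began at 0 and overlapped that of the females.

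Summed roX2 was 173.4 CPM in nervy mutant males and 0 CPM in nervy mutant females, at least 2192-fold higher in the males against the floor of 3 counts over the group. It was 365.7 CPM in wild-type males and 24.96 CPM in wild-type females, a log2 ratio of 3.82. Without cells under 100 CPM of Tdc2, it was 208.7 CPM in wild-type males and wild-type females had no read.

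Both roX RNAs varied among male cells, roX2 the more so. roX1 exceeded roX2 in every male cell with a roX2 read, by a median factor of 25.1 in mutant and 22.5 in wild-type males, over a range of 1.49 to 1710 in nervy mutants and 1.80 to 1899.5 in wild type. These are ratios of CPM, not adjusted for length. Per kilobase of counted exon, the summed ratio of roX1 to roX2 was 5.50 in nervy mutant males and 2.66 in wild-type males. Across cells, Spearman's rho between roX1 and roX2 was 0.33 in 49 mutant male cells and 0.60 in 42 wild-type male cells, as a description of cells that differ in depth. Over the 44 mutant and 38 wild-type male cells with at least 100 CPM of Tdc2 it was 0.20 and 0.50.

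High roX2 often went with low Tdc2. The 9 male cells under 100 CPM of Tdc2 had a median of 1194 CPM of roX2, and the other 82 male cells had a median of 71.95 CPM. A roX2 read was found in 7 of those 9 cells. At least 1000 CPM was reached by 5 of the 9 and by 3 of the other 82. The 5 cells low in Tdc2 from nervy mutant males held 47.7% of that group's roX2 counts and 3.67% of all its counts. The 4 from wild-type males held 45.8% of the roX2 counts and 5.05% of all counts. Their median roX1 was 4674 CPM, against 2951 CPM in the other male cells. Among them 2 near-identical pairs joined the genotypes, which leaves 7 distinct profiles. The highest roX2 cell of each male group, mutant male cell 23 and wild-type male cell 27, formed such a pair and had 2689 and 2523 CPM of the glial gene nrv2. Without all cells under 100 CPM of Tdc2, summed roX2 was 94.2 CPM in nervy mutant males, and 208.7 CPM among wild-type males.

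**Figure D2:**
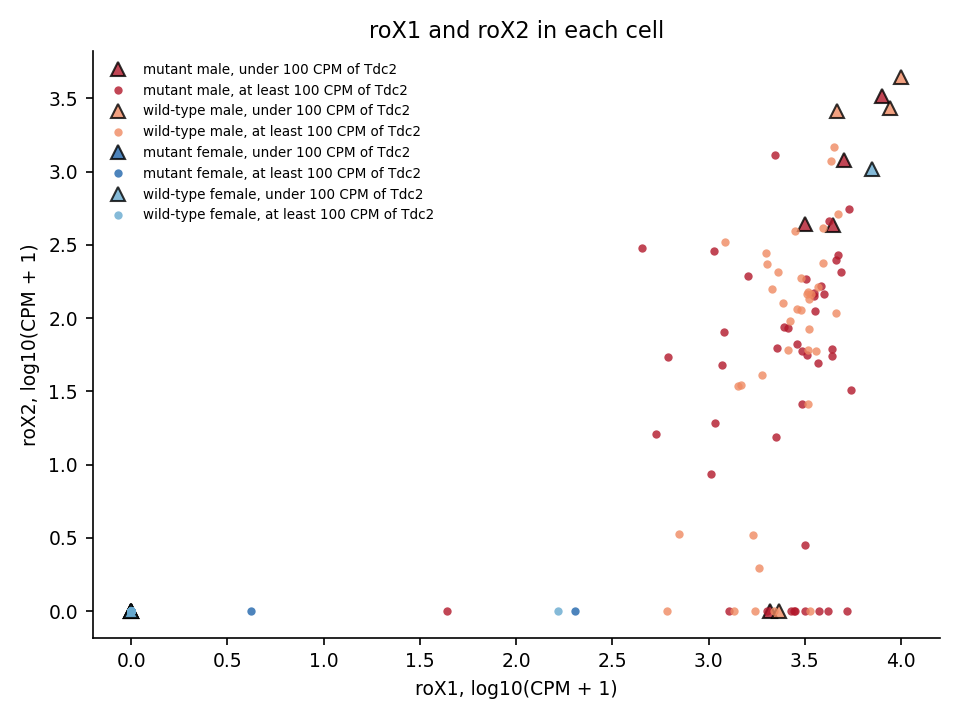
roX1 against roX2 in each cell, both as log10(CPM + 1), with triangles for cells under 100 CPM of Tdc2. Male cells sit at the right, most of the male cells with little Tdc2 sit at the top right with wild-type female cell 41, and nearly all female cells lie at 0 on both axes.

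In males, mutant and wild-type flies had nearly the same roX1, with a log2 ratio of -0.03. roX2 was lower in nervy mutant males, with a log2 ratio of -1.07. That difference was -2.03 among cells numbered 1 to 96 and -0.52 among those above 96, and 0.04 above 96 once near-identical pairs were left out. In females the mutant-to-wild-type log2 ratios were -4.44 for roX1 and -4.70 for roX2. Both rested on wild-type female cell 41. Without cells under 100 CPM of Tdc2 the ratio of roX1 was 0.57, and neither group of females had a read of roX2.

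msl-2 (FBgn0005616, dm6, 2L from 3462218 to 3466112) encodes the RING-finger subunit whose production is limited to males. Its RNA was present in both sexes. The lowest, median and highest cells had 0, 46.1 and 216.6 CPM in nervy mutant males, 0, 51.3 and 273.9 CPM in the wild-type males, 0, 46.8 and 321.7 CPM in nervy mutant females, and 0, 50.1 and 270.3 CPM in wild-type females. The 4 groups overlapped over almost their whole range. Summed msl-2 was 72.6 CPM in nervy mutant males and 61.9 CPM in nervy mutant females, a log2 ratio of 0.22, and 59.7 CPM in wild-type males and 73.4 CPM in wild-type females, a log2 ratio of -0.29. These directions were not stable. Among cells numbered above 96 the ratio in nervy mutants was -0.34, and that in wild type was 0.03 without cells that have the letter D in their title and 0.19 above 96 without near-identical pairs. The mutant-to-wild-type log2 ratio was 0.28 in males and -0.24 in females, and among cells above 96 it was -0.22 and -0.10.

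msl-3 (FBgn0002775, dm6, 3L from 7123213 to 7125533) encodes a chromodomain subunit. It summed to 30.2 CPM in nervy mutant males and 15.95 CPM in nervy mutant females, and to 21.6 CPM in wild-type males and 11.4 CPM in wild-type females. The log2 ratios of 0.88 and 0.87 did not pass 2-fold. Median cells had 11.03 CPM in nervy mutant males, 7.82 CPM in wild-type males, 5.78 CPM in nervy mutant females, and 4.91 CPM among wild-type females, and all groups overlapped from 0 upwards. The ratio in nervy mutants was -0.68 among cells above 96 without near-identical pairs, which left 10 mutant male cells, and that in wild type was 0.19 there. Without cells with the letter D the wild-type ratio was 1.21. In the annotation msl-3 shares 4.31% of its exon bases with form3, whose reads could not be told apart there.

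mle (FBgn0002774, dm6, 2R from 5974857 to 5980778) encodes the RNA helicase of the complex. Its lowest, median and highest cells had 0, 35.4 and 273.6 CPM in nervy mutant males, 0, 15.4 and 168.2 CPM in the wild-type males, 0, 56.5 and 355.6 CPM in nervy mutant females, and 0, 68.2 and 285.7 CPM in wild-type females. Summed mle was 80.0 CPM in nervy mutant males and 79.5 CPM in nervy mutant females, and 37.2 CPM in wild-type males and 89.4 CPM in wild-type females. The cells of all 4 groups overlapped, and wild-type males had the lowest sum when all cells were used. The male-to-female log2 ratio was 0.01 in nervy mutants and -1.24 in wild type, and that of mutant to wild type was 1.08 in males and -0.17 in females.

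The mle differences moved with the running numbers. Among cells numbered 1 to 96, the ratio of mutant to wild-type males on the log2 scale was 1.57, and above 96 it was 0.37. Above 96 and without near-identical pairs it was -0.85, with 32.8 CPM over 10 mutant male cells and 59.8 CPM over 9 wild-type male cells. In wild-type females mle was 183.3 CPM in the 8 cells numbered 1 to 96 and 56.4 CPM in the 40 above. The wild-type ratio of male to female was -2.44 in the lower stretch, -0.46 in the upper one and 0.09 in the upper one without pairs. In nervy mutants, all of whose females were numbered above 96, it was -0.58 in the upper stretch and -1.26 there without pairs. Without pairs above 96 the order of the groups thus changed, and mutant males had the lowest sum.

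msl-1 and mof were sparse. msl-1 (FBgn0005617, dm6, 2L from 18683720 to 18688800), the scaffold of the complex, summed to 11.8 CPM in nervy mutant males, 13.5 CPM in wild-type males, 13.9 CPM in nervy mutant females, and 17.5 CPM among wild-type females. It was read in 17 to 22 cells per group, and 1 cell held 17.99% to 41.7% of a group's counts. mof (FBgn0014340, dm6, X from 5873840 to 5876853), the histone acetyltransferase, summed to 10.6 CPM in nervy mutant males, 7.76 CPM in wild-type males, 11.9 CPM in nervy mutant females, and 10.9 CPM among wild-type females, with a read in 11 to 17 cells per group. None of their 8 ratios passed 2-fold with all cells used. Among cells numbered 1 to 96 the wild-type log2 ratio of male to female was -1.42 for msl-1 and -2.22 for mof. Above 96 without near-identical pairs these were 1.45 and 1.16. In nervy mutants the male-to-female ratio of msl-1 was -1.02 above 96. For mof the ratio of mutant to wild-type males was 1.31 at 1 to 96 and -2.46 above 96 without pairs. Each of the 8 ratios changed sign in at least 1 alternative, except that of mof between female genotypes, which stayed between 0.04 and 0.81.

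Clamp (FBgn0032979, dm6, 2L from 22165720 to 22169143) encodes a zinc-finger protein that brings the complex to the X chromosome. Its lowest, median and highest cells had 0, 61.2 and 225.97 CPM in nervy mutant males, 0, 54.4 and 206.5 CPM in the wild-type males, 0, 82.2 and 428.8 CPM in nervy mutant females, and 0, 94.6 and 483.4 CPM in wild-type females. The sexes overlapped widely, with lower medians in males. Summed Clamp was 64.5 CPM in nervy mutant males and 95.5 CPM in nervy mutant females, and 70.8 CPM in wild-type males and 94.95 CPM in wild-type females. The log2 ratios were -0.56 and -0.42, within 2-fold, and were below 0 in all 15 and all 17 alternatives tried. In nervy mutants the ratio was -1.16, past 2-fold, among cells numbered above 96. Clamp shares 17.3% of its exon bases with CG42748.

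**Figure D3:**
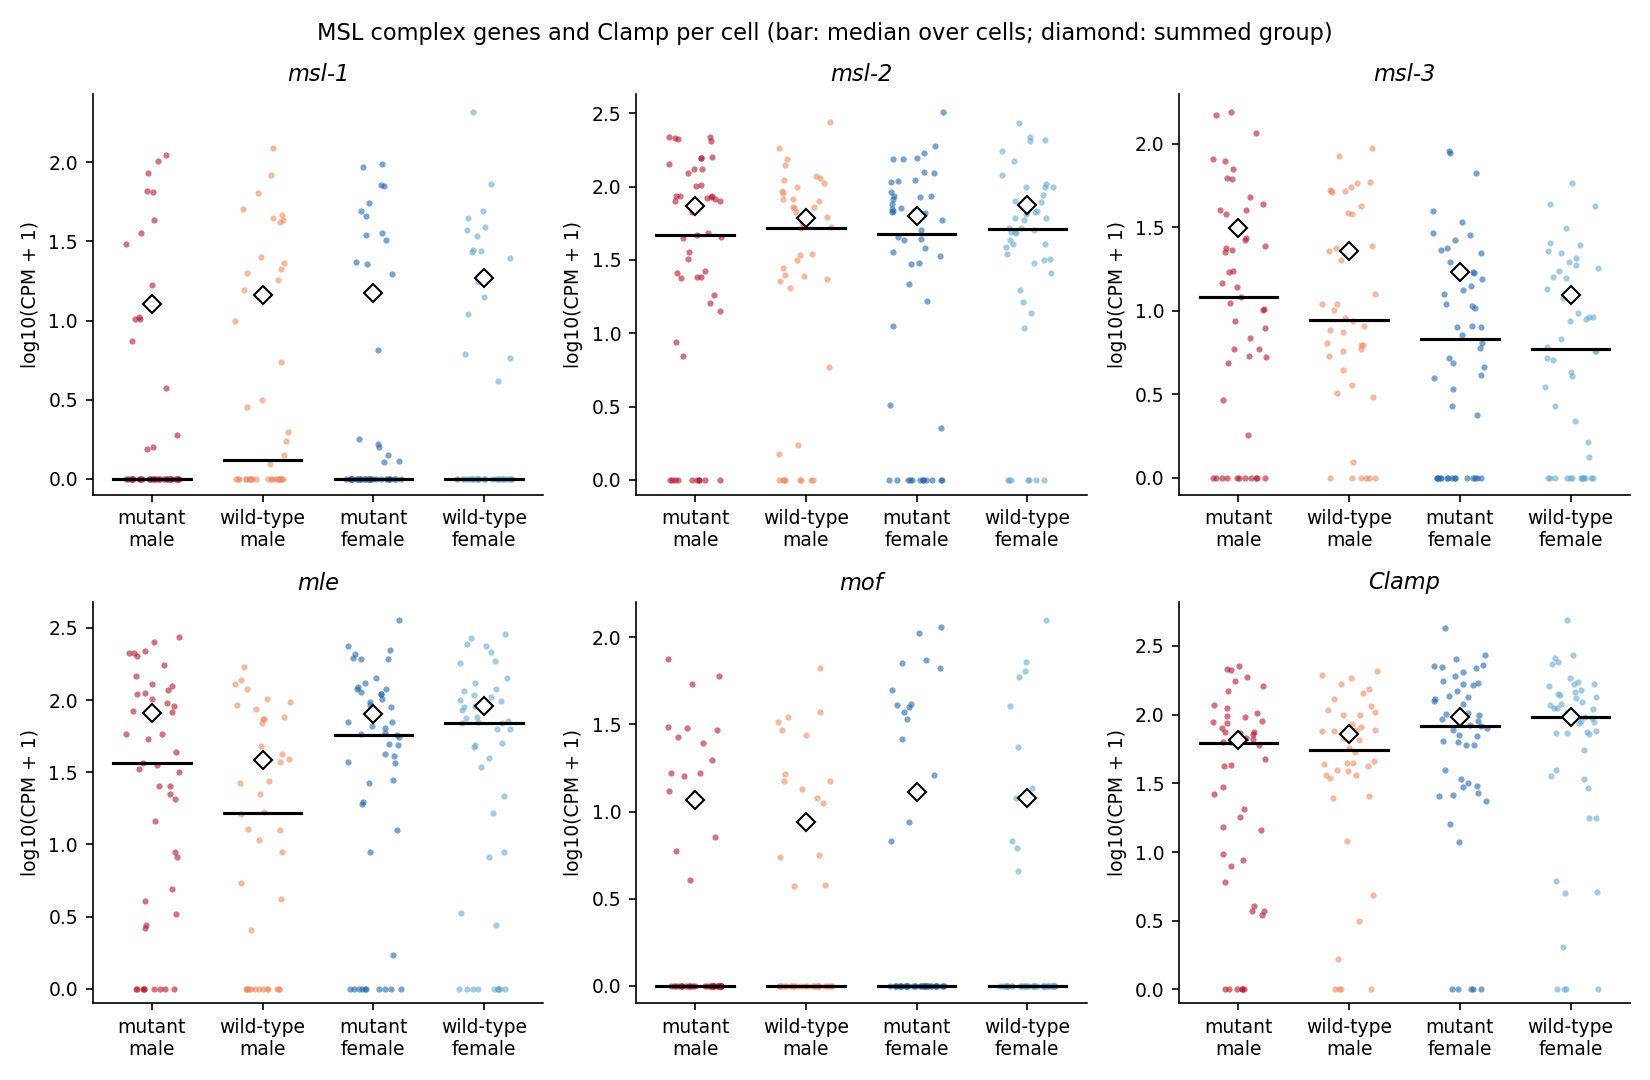
Levels of msl-1, msl-2, msl-3, mle, mof and Clamp in each cell, as log10(CPM + 1), in nervy mutant males, wild-type males, nervy mutant females and wild-type females. Points are cells, bars are medians over cells and diamonds are summed groups. Every gene overlapped between the groups from 0 upwards, and with all cells used the lowest summed mle was that of wild-type males, 37.2 CPM.

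Sxl (FBgn0264270, dm6, X from 7074550 to 7098053) was read in both sexes and was higher in females over the counted bases. The counts cover 1 listed transcript per gene, so male and female splice forms could not be told apart. For Sxl that transcript has 3307 exon bases from 7082921 to 7098053, where the annotation gives the gene 9192. Levels over the other exon bases were not measured. Its lowest, median and highest cells had 0, 75.1 and 1784 CPM in nervy mutant males, 0, 82.2 and 376.6 CPM in the wild-type males, 0, 335.4 and 723.9 CPM in nervy mutant females, and 1.03, 304.6 and 1093 CPM in wild-type females. The ranges overlapped, yet 1 of 49 mutant male and 2 of 42 wild-type male cells lay above the median of the females of their genotype. In nervy mutants 45 of 49 male cells lay at or below the female lower quartile, and in wild type 38 of 42 did.

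Summed Sxl was 87.3 CPM (84.71 to 89.96) in nervy mutant males and 358.9 CPM (352.9 to 364.9) in nervy mutant females, a log2 ratio of -2.03. It was 105.6 CPM (102.7 to 108.7) in wild-type males and 367.9 CPM (362.5 to 373.3) in wild-type females, a log2 ratio of -1.79. Over the alternatives the ratio ran from -2.42 to -1.52 in nervy mutants and from -1.90 to -1.61 in wild type. Between genotypes the log2 ratios were -0.27 in males and -0.04 in females. Among males it was 0.17 where per-cell CPM were averaged, and -0.66 above 96 without near-identical pairs.

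Single cells went against the Sxl pattern. Mutant male cell 51 had 1784 CPM of Sxl together with 1025 CPM of roX1, and the next highest mutant male cell had 274.6 CPM. Mutant female cells 4, 9 and 12 had no Sxl read, and neither did they have a roX1 read. Of the 9 genes, cells 4 and 9 had no read of any, and cell 12 had only msl-2, at 2.23 CPM. Tdc2 was at 1238, 0 and 2247 CPM in cells 4, 9 and 12. Cell 9 also had 2988 CPM of the glial gene alrm and 25.7% X-linked reads, with 155.1 CPM of nrv2 and no read of repo. Wild-type female cell 11 had 1.03 CPM of Sxl, 7.24 CPM of Tdc2 and 7845 CPM of the glial gene nrv2. It had no read of the glial genes repo and alrm. Within males, Spearman's rho between roX1 and Sxl was 0.53 over 49 mutant cells and 0.69 over 42 wild-type cells, a description of cells that share differences in depth and cell type.

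**Figure D4:**
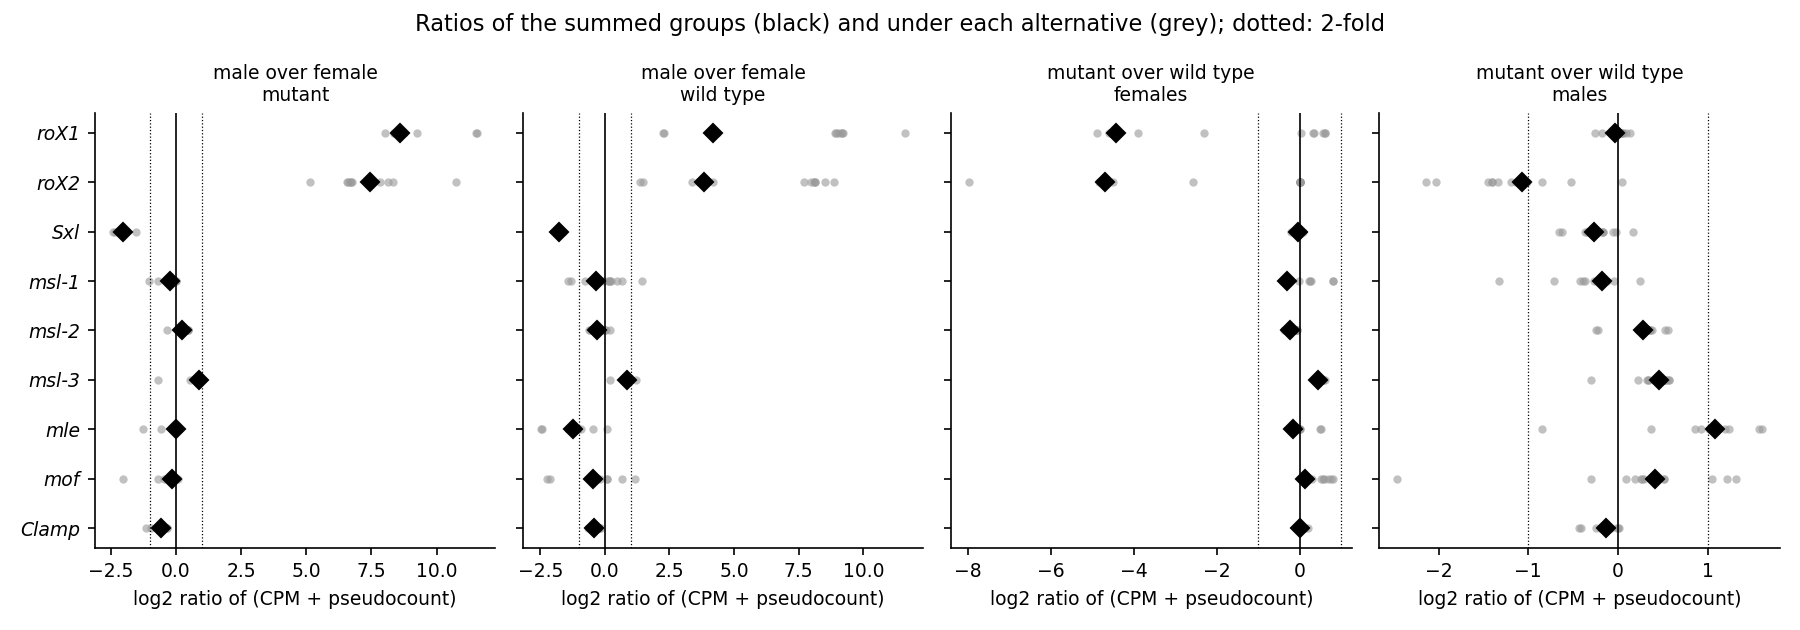
Log2 ratios of the summed groups for the 9 genes in the 4 comparisons, with black diamonds for the values reported and grey points for each alternative. Dotted lines mark 2-fold. Male to female ratios of roX1, roX2 and Sxl kept their side of 0 in every alternative drawn, while the ratios of mle between mutant and wild-type males ran from -0.85 to 1.60.

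In the comparison of males with females, 3 of the 9 genes passed 2-fold in nervy mutants, roX1 and roX2 higher and Sxl lower, where 7.2% of the 5585 genes at a mean of 20 CPM or more did. In wild type 4 of 9 passed, with mle lower as well, against 7.79% of those genes. Between genotypes, 2 of 9 passed in females, against 4.64%, and both were the roX RNAs carried by cell 41. In males 2 of 9 passed, mle higher and roX2 lower in nervy mutants, against 2.42%. The median log2 ratio of the 9 genes was 0.01 and -0.35 for male to female in nervy mutants and wild type, and -0.17 and -0.03 for mutant to wild type in females and males. Over all 5585 genes these medians were 0.02, 0.01, 0 and 0.01. Of the 9 genes, 6 reached a mean of 20 CPM, and the roX RNAs did so through the males. msl-3, msl-1 and mof, at 19.8, 14.2 and 10.3 CPM, did not.

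Per kilobase of counted exon, the levels had a different order in the sexes. In males roX1 came first, at 698.3 CPM per kilobase in nervy mutants and 711.6 in wild type, then roX2 at 126.9 and 267.6, then Sxl at 26.4 and 31.95 and Clamp at 22.3 and 24.5. In females Sxl came first, at 108.5 CPM per kilobase in nervy mutants and 111.2 in wild type. The ranges over the 4 groups of mle, 9.27 to 22.3, and msl-2, 15.6 to 19.1 CPM per kilobase, overlapped, and so did those of msl-1, 2.35 to 3.49, and mof, 2.58 to 3.95.

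At 190000 reads per cell, roX1 was read in all 45 mutant male cells (exact binomial interval 92.1% to 100%), all 40 wild-type male cells (91.2% to 100%), 1 of 45 mutant female cells (2.22%, interval 0.0562% to 11.8%) and 2 of 42 wild-type female cells (4.76%, interval 0.582% to 16.2%). Without thinning the female shares were 4% and 4.17%. Reads of Sxl came from 93.3% of mutant male, 97.5% of wild-type male, 93.3% of mutant female and 97.6% of wild-type female cells. Without thinning, at unequal depth, all 5 protein subunits were read together in 7 of 49 mutant male, 4 of 42 wild-type male, 3 of 50 mutant female and 4 of 48 wild-type female cells.

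The X chromosome is what the complex acts on. Over 951 X-linked genes, the members left out, the median male-to-female log2 ratio was -0.07 in nervy mutants and -0.05 in wild type. Over 4562 genes of the large autosomal arms it was 0.05 in nervy mutants and 0.03 in wild type. With counts scaled to library size, the X-linked median put males at 0.95 of the female level in nervy mutants and 0.967 in wild type. That fraction depends on the scaling and is given for this one only. The X-linked minus autosomal difference was -0.12 in nervy mutants and -0.08 in wild type, and ran from -0.14 to -0.09 and from -0.11 to -0.06 over the alternatives. Over 61 genes of chromosome 4 the median ratio was -0.18 in nervy mutants and -0.14 in wild type.

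**Figure D5:**
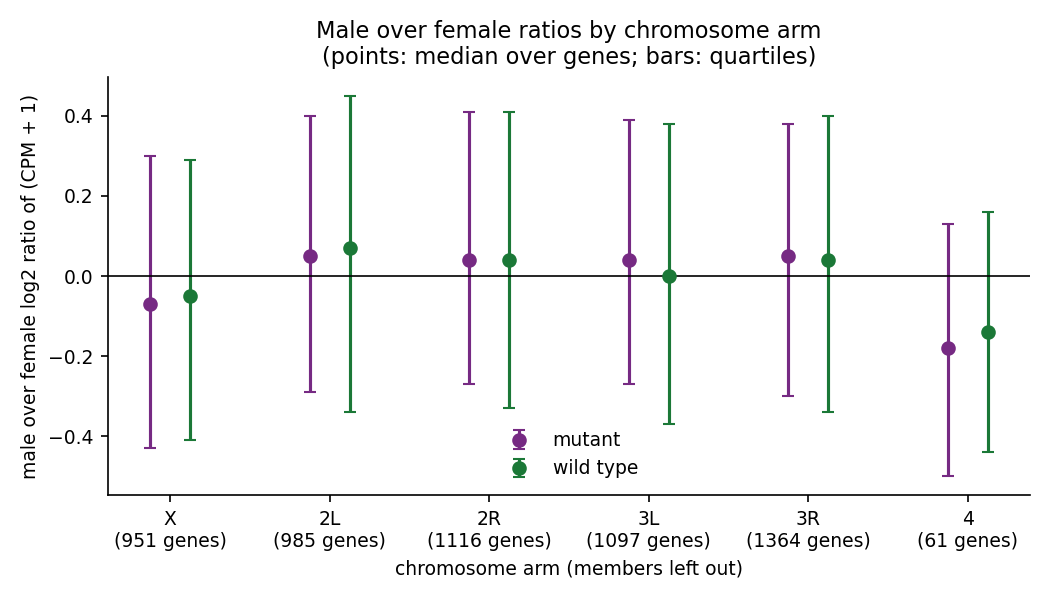
Median male-to-female log2 ratio of RNA over the genes of each chromosome arm in nervy mutants and wild type, with bars for the quartiles over genes. The X chromosome had medians of -0.07 and -0.05, and the quartiles of all arms overlapped.

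X-linked reads made up a median of 15.0% of the reads of a cell in nervy mutant males and 14.8% in wild-type males, against 15.6% in nervy mutant females and 15.6% in wild-type females. The lowest and highest cells had 13.6% and 20.6% in nervy mutant males, 13.2% and 19.5% in wild-type males, 14.03% and 25.7% in nervy mutant females, and 14.5% and 21.5% in wild-type females. The ranges overlapped, with lower medians in both male groups.

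The genes whose levels followed a member most closely from cell to cell were ranked by the mean within-group Spearman's rho. For roX1, over both male groups, they were Sh (0.67), hfp (0.66) and mei-P26 (0.65), where the median gene had 0.12. For roX2 they were Rbp6 (0.56), CG7708 (0.55) and CG46318 (0.55). For Sxl, over all 4 groups, they were Sh (0.43, lowest and highest group 0.39 and 0.46), Ephrin (0.41, 0.14 and 0.64) and PNUTS (0.40, 0.23 and 0.57). msl-3 was closest to form3 (0.67, lowest and highest group 0.64 and 0.72), with which it shares exon bases. mle was closest to nsl1 (0.38, 0.24 and 0.53), msl-2 to CG9646 (0.40, 0.18 and 0.61) and Clamp to CG17816 (0.38, 0.25 and 0.47). Cells of near-identical pairs and cells low in Tdc2 were kept in these ranks, and their part was not tested. msl-1 and mof had reads in too few cells to be ranked.

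Other genes of these pathways were counted by list, beside the shares of all tested genes given above. Of 12 partners of the MSL and related NSL complexes found in the table, 10 reached a mean of 20 CPM. Of the 12, 0 passed 2-fold between the sexes in nervy mutants and 2, MBD-R2 and Rcd5, were lower in wild-type males than in wild-type females, where 7.79% of all tested genes passed. Between genotypes 2, Rcd5 and dgt1, were lower in nervy mutant females, against 4.64% of all tested genes, and 0 passed in males, against 2.42%. In wild-type females a single cell held 58.3% of the Rcd5 counts, and a single cell held 58.1% of the dgt1 counts. The median log2 ratio of the list was -0.16 for male to female in nervy mutants and -0.25 in wild type. Of 8 splicing and RNA-methylation partners of Sxl, 4 reached a mean of 20 CPM and 0 passed 2-fold in the 4 comparisons, where 2.42% to 7.79% of all tested genes did. Their median log2 ratios lay between -0.15 and 0.17.

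Among 7 listed Sxl targets and sex determination genes, fru, a transcription factor gene, was lower in males of both genotypes. It summed to 113.4 CPM in nervy mutant males and 263.2 CPM in nervy mutant females, a log2 ratio of -1.21. In wild type it summed to 59.2 CPM in males and 484.2 CPM in females, a log2 ratio of -3.01. With 1 listed transcript counted, splice forms of fru could not be told apart. N, which encodes the Notch receptor, was lower in nervy mutants of both sexes, with log2 ratios of -1.16 in males and -2.61 in females. A single cell held 59.4% of the N counts in wild-type males and 70.02% in wild-type females. ix, a partner of the doublesex protein, was at 17.5 CPM in wild-type males and 7.23 CPM in wild-type females, a log2 ratio of 1.17. Of the 7 genes, 3 reached a mean of 20 CPM, and ix did not. Between the sexes 1 of the 7 passed 2-fold in nervy mutants, against 7.2% of all tested genes. In wild type 1 was higher and 1 lower, against 7.79%. Between genotypes 1 passed in females, against 4.64%, and 1 in males, against 2.42%. The median log2 ratio of those 7 genes was 0.19 for male to female in nervy mutants and -0.11 in wild type, where all tested genes had 0.02 and 0.01. Of 9 genes listed for the embryonic signal that sets Sxl, sisA and sc had no read. In that list run and dpn passed 2-fold, each at under 5 CPM in every group. That was 1 gene in each of the 4 comparisons, where 2.42% to 7.79% of all tested genes passed. Of the 9 genes, 4 reached a mean of 20 CPM.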

How the data were processed

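The authors deposited 1 table of expected counts per gene for single cells; per the file headers, reads were counted over exons with HOMER on dm6, with 1 RefSeq transcript per gene and no normalization. FastQC and edgeR are also named in the submitters' processing notes. The aligner and the use of strand are not given in the sources used here. Values came in steps of 0.5, with 56.2% of the nonzero ones whole, so they were handled as estimated counts although the plan had assumed whole counts. Cells under 10000 counts or 500 genes were left out. Columns with a correlation of at least 0.95 within a group were averaged. Counts were summed per group, scaled to CPM and compared as log2(CPM + 1) in Python 3.11.15 with numpy 2.4.6, pandas 2.3.3 and scipy 1.17.1; values were rounded for intervals and for thinning to 190000 reads. Amplified reads were not independent molecules, so intervals and the floor of 3 counts cover counting error only. No doublet caller was run. The scripts were tested on simulated data. Positions and shared exon bases came from the Ensembl annotation, where 98.4% of 15044 matched genes overlapped the deposited coordinates.

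The members and lists were chosen with earlier results of these data known. All 9 members were named. Other genes were named when past 2-fold in 1 direction in both comparisons of a kind, and those named beside a count of 5 or fewer were chosen after their values were seen. Alternatives changed the filter on cells, the averaging, the pseudocount, the scaling and the cells used. Columns were grouped by the sex and genotype in the labels.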

Additional observations from a re-analysis of the deposited data

Results flagged for a closer look

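The mutant-to-wild-type ratio of msl-2 had opposite signs in the sexes, -0.24 among females and 0.28 among males, a difference of -0.52 (females minus males). Its male-to-female ratio likewise had opposite signs, 0.22 among nervy mutants and -0.29 among wild-type flies, a difference of 0.52. For mle the mutant-to-wild-type ratio was -0.17 among females and 1.08 among males, a difference of -1.25. All are on the log2 scale. Among cells numbered above 96 the opposite signs of msl-2 were lost: mutant to wild type was -0.10 among females and -0.22 among males, and male to female -0.34 among nervy mutants and -0.22 among wild-type flies. For mle the values there were 0.49 among females and 0.37 among males. With 1 sample per group these differences were not tested.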

How the results depend on the processing

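In every alternative run for them, 15 to 19 per result, the ratios of roX1, roX2 and Sxl between the sexes and the X-linked minus autosomal differences kept their sign. The ratio of roX1 between mutant and wild-type females turned to 0.04 without female cells at 100 CPM of roX1 (a choice by roX1 itself, which fixes a value near 0), 0.57 without cells under 100 CPM of Tdc2, 0.61 without cells at 10 CPM of repo, 0.32 above number 96, 0.34 there without near-identical pairs, and 0.60 without pairs and cells low in Tdc2. Above 96 without pairs, the male ratios of mutant to wild type turned to 0.04 for roX2 and -0.85 for mle, and the wild-type ratio of male to female for mle to 0.09. The count past 2-fold between the sexes in mutants was 5 above 96, with and without pairs. In wild type that count was 6 at numbers 1 to 96 and 3 above 96. Between female genotypes it was 0 under each of those 6 settings and 1 without the top cell. Between male genotypes it was 0 when CPM was averaged over cells and above 96, and 1 without cells at 10 CPM of repo. The shares of all tested genes given above are for all kept cells. No such share is given under these settings, so these counts have no background beside them. Other than the cells left out, the cause was not tested. The alternatives that combine leaving out pairs with numbers 1 to 96, with numbers above 96 or with Tdc2 were all chosen after seeing the data. No paired analysis was possible because each cell belongs to 1 group and the numbers in the labels do not tie cells of different groups. msl-1 and mof were under 18 CPM in every group, with reads in 11 to 22 cells of each.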
